A study of Mus musculus with 59 samples.

Results

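The integrated stress response and the unfolded protein response were read through 10 genes in 3 muscles of melanoma-bearing mice. The genes Chac1, Atf3, Atf4, Ddit3, Trib3, Asns, Sesn2, Hspa5, Xbp1 and Syvn1 were taken by symbol from the 47643 gene symbols in the table, and all 10 were present. The mice were female athymic NCI Ath/nude animals aged 4 months, which lack T cells, and all of them carried a melanoma. Cachectic and non-cachectic groups differed in the patient-derived melanoma xenograft implanted, so that the xenograft and the cachexia it causes cannot be told apart here. In the diaphragm, 10 cachectic and 9 non-cachectic mock-injected mice were compared with 10 cachectic and 10 non-cachectic mice given recombinant Fibcd1 (rFibcd1) into the peritoneum, the mock injection being buffered saline with albumin. The limb muscles were the fast tibialis anterior (TA) and the slow soleus (SOL), each from 5 cachectic and 5 non-cachectic mice whose labels name no rFibcd1. There was no tumor-free group. RNA of whole muscle was sequenced, giving 59 libraries in 8 groups.

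The integrated stress response begins when 1 of several kinases phosphorylates the translation factor eIF2alpha, which slows protein synthesis in general while translation of the transcription factor ATF4 goes up. ATF4 and its partners ATF3 and CHOP (the product of Ddit3) then switch on genes of amino acid supply, redox balance and feedback. The unfolded protein response senses misfolded protein in the endoplasmic reticulum through PERK, IRE1 and ATF6: PERK feeds into ATF4, IRE1 splices the Xbp1 mRNA, and ATF6 with spliced XBP1 raises chaperones and degradation factors. In muscle, ATF4 targets are known from studies of atrophy and of mitochondrial defects. The table gives total RNA per gene, so neither ATF4 translation, eIF2alpha phosphorylation nor Xbp1 splicing was measured.

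The windows around the gene starts are shown because they hold, for 6 of the 10 genes, letters of elements known from these responses. The sequences were read from RefSeq windows on GRCm38.p6 spanning 250 bases before to 50 bases after each gene's start, which were found for 10 of 10 genes. Matches on either strand are in capitals. TGATGNAA is the core of the C/EBP-ATF element, TGACGT a core of cyclic AMP response elements, and CCAAT followed after 9 bases by CCACG is the endoplasmic reticulum stress element. The first is the pattern bound by ATF4 with C/EBP proteins and the third is the pattern bound by ATF6 with NF-Y. The 4 genes with a TGATGNAA match were the ATF4 targets Chac1, Atf3, Trib3 and Asns, and the stretch shown for Atf3 also holds a TGACGT match. In GENCODE M21 the Asns stretch and the second Hspa5 stretch lie wholly in exons, and the Trib3 stretch lies after the RefSeq start.
Chac1, chr2:119351023-119351082, plus strand: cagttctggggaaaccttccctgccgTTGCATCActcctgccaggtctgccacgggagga
Atf3, chr1:191183334-191183469, minus strand: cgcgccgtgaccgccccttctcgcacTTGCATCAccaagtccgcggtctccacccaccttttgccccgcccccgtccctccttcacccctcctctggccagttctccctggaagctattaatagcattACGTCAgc
Trib3, chr2:152344028-152344057, minus strand: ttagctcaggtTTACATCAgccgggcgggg
Asns, chr6:7693214-7693243, minus strand: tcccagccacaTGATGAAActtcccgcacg

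The 2 genes with the endoplasmic reticulum stress element were the chaperone gene Hspa5, which also had a TGACGT match, and the ubiquitin ligase gene Syvn1.
Hspa5, chr2:34771907-34771964, plus strand: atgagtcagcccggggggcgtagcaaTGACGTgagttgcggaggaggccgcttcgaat
Hspa5, chr2:34772020-34772049, plus strand: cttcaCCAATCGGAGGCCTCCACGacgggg
Syvn1, chr19:6046506-6046575, plus strand: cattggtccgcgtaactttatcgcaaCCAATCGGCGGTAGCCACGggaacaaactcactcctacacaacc

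Of 32851 promoter windows of this length, 3.97% held TGATGNAA, 7.51% held TGACGT and 0.119% held the endoplasmic reticulum stress element. No match lay in the windows of Atf4, Ddit3, Sesn2 and Xbp1, which says only that these letters were not in these windows. On GRCm38 with the GENCODE M21 annotation, Chac1 lies at chr2:119351229-119354381, Hspa5 at chr2:34771970-34777547, Xbp1 at chr11:5520659-5525893, Atf4 at chr15:80255184-80257541 and Syvn1 at chr19:6046576-6053712, all on the plus strand. Atf3 lies at chr1:191170296-191218039, Trib3 at chr2:152337422-152344032, Sesn2 at chr4:132492032-132510501 and Asns at chr6:7675169-7693254, all on the minus strand. Ddit3, at chr10:127290774-127296288 on the plus strand, overlaps the protein-coding gene Mars on the other strand, and Syvn1 overlaps the protein-coding gene Mrpl49 on the other strand. The sources differ on whether the kit kept the strand, so reads of those overlaps may be shared.

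The values are TPM, a transcript abundance in which read counts are scaled by gene length and set to sum to 1000000 in every library, so read depth is not known from them. Between 16436 and 19456 symbols were above 0 in a library. Fibre genes fitted the muscle labels: Myh4, the fast myosin, was at 7593 to 14537 TPM in TA and at 7.34 to 24.9 TPM in non-cachectic SOL, and Myh7, the slow myosin, was at 4288 to 7886 TPM in SOL and at 0.271 to 4.83 TPM in TA. Transcripts of the mitochondrial genome took 32.9 to 41.6% of all TPM in cachectic and 41.9 to 51.9% in non-cachectic mock diaphragms, 25.1 to 45.6% against 47.3 to 51.7% in TA and 24.1 to 34.6% against 38.96 to 44.0% in SOL, which leaves more of the total to other genes in the cachectic libraries. Values are therefore also given after median-ratio scaling, which sets the typical gene equal in all libraries, for the melanoma comparisons and wherever it changes a call among the 10 genes. A processed pseudogene, Pcna-ps2, split the libraries into a high set at 5.60 to 22.8 TPM and a low set at or below 0.428 TPM. The labels name no batch for this split. In the diaphragm 9 of 10 cachectic and 3 of 9 non-cachectic mock libraries were high, with 8 of 10 and 6 of 10 after rFibcd1, while in both limb muscles every cachectic library was high and every non-cachectic library low, so that there the split and the melanoma type cannot be told apart. Macrophage markers summed to 43.0 to 164 TPM in cachectic and 32.2 to 67.0 TPM in non-cachectic mock diaphragms, with 7.33 to 51.0 against 4.65 to 8.69 TPM in TA and 15.7 to 108 against 16.3 to 25.8 TPM in SOL. In SOL Cd68 had a median of 26.5 against 6.70 TPM, while the medians of Adgre1, Csf1r and Mrc1 were lower in cachectic mice. Neutrophil markers were at 9.29 to 53.3 against 2.92 to 20.02 TPM in the mock diaphragm, 6.47 to 49.0 against 0.969 to 3.65 TPM in TA and 7.13 to 29.97 against 2.71 to 4.56 TPM in SOL. Mpo, a defining neutrophil gene, was listed at 0 in all 10 cachectic limb libraries and at no more than 0.0166 TPM in the non-cachectic ones. Adipocyte markers summed to a median of 173 TPM in cachectic and 59.5 TPM in non-cachectic mock diaphragms (40.6 to 640 and 21.8 to 284). Muscle markers had a median of 45923 TPM in cachectic and 35653 TPM in non-cachectic mock diaphragms. In TA the cachectic and non-cachectic medians were 328 and 202 TPM for fibroblast and 53072 and 62760 TPM for muscle markers. In SOL they were 273 and 711 TPM for fibroblast and 64235 and 48468 TPM for muscle markers. The part of these cells in the results was not tested, and in whole muscle, fewer cells of a type and less RNA per cell cannot be told apart.

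**Figure D1:**
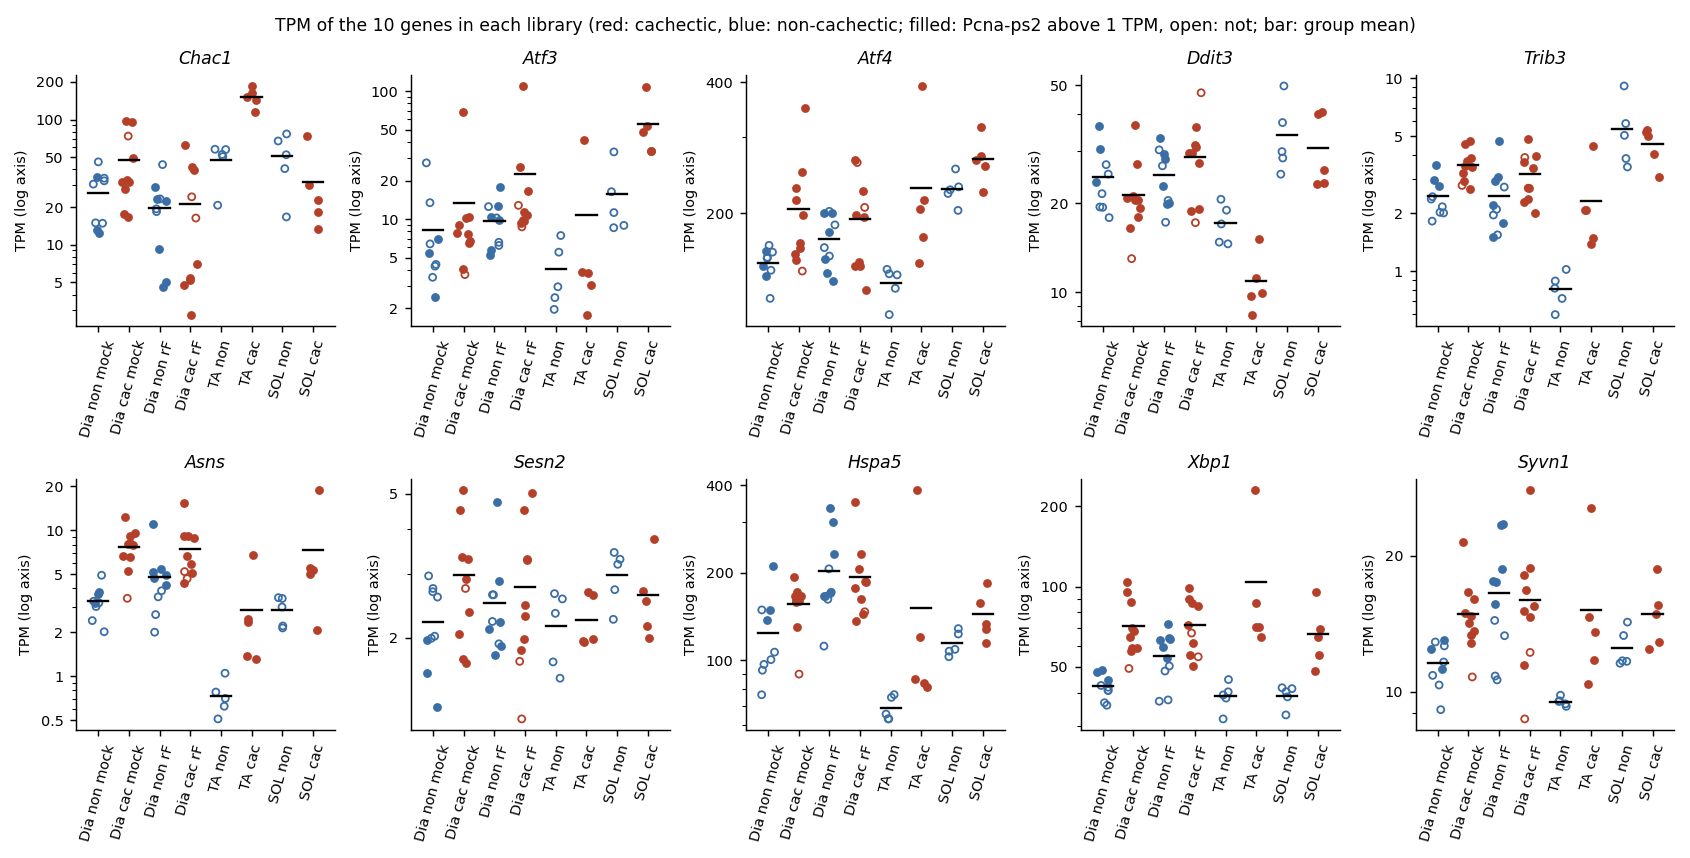
TPM (log axis) of the 10 genes in each of the 59 libraries, 1 panel per gene, with the 8 groups (non, non-cachectic; cac, cachectic; rF, rFibcd1) along the horizontal axis, red for cachectic and blue for non-cachectic, filled points for Pcna-ps2 above 1 TPM, and a bar at each group mean. In TA the cachectic Chac1 values, from 116 to 185 TPM, sit above all non-cachectic ones, while in SOL the order of the means is the other way round.

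Over all 59 libraries Chac1 varied most, from 2.77 to 185 TPM, a 67.0-fold range, followed by Atf3 with a 61.3-fold range from 1.79 to 109.7 TPM and Asns with a 36.9-fold range from 0.510 to 18.8 TPM. Syvn1 varied least, from 8.71 to 27.9 TPM, and Atf4 varied 3.36-fold, from 117 to 393 TPM. On this per-length scale Atf4 and Hspa5 had the highest medians, 176 and 149 TPM, while Sesn2 and Trib3 had the lowest, 2.46 and 2.78 TPM. The abundant genes of the set were thus the upstream factor and the main chaperone, and the genes with the widest ranges were among those downstream of ATF4.

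Cachectic melanoma in the mock-injected diaphragm came with more RNA for asparagine synthetase (Asns), the transcription factor Xbp1, the pseudokinase Trib3 and Atf4 itself. Of the 10 genes 4 were higher and 0 lower at an adjusted p under 0.05 (limma, Benjamini-Hochberg over all 13426 genes tested). Over all genes 33.5% were called, 30.9% higher and 2.67% lower. The median log2 difference was 0.38 over the 10 genes and 0.20 over all genes. After median-ratio scaling 2 of the 10 were called, Asns and Xbp1, against 16.4% of all genes. These and all later differences are on the log2(TPM + 1) scale, which understates those of low genes.

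Asns, the enzyme that makes asparagine, was at 2.02 TPM in the lowest, 3.19 in the median and 4.93 in the highest of the 9 non-cachectic mock diaphragms and at 3.42, 7.97 and 12.3 TPM in the 10 cachectic ones. All but 1 of the cachectic libraries lay above the highest non-cachectic one, and the log2 difference was 1.00 (SE 0.20, adjusted p = 0.000474). It was 0.79 after median-ratio scaling (adjusted p = 0.000731).
Xbp1, the transcription factor activated by IRE1, was at 35.9, 41.9 and 48.8 TPM (lowest, median and highest) in non-cachectic and at 49.3, 66.5 and 103.7 TPM in cachectic mock diaphragms. These ranges did not overlap, as for no other of the 10 genes in the mock diaphragm and for 4.07% of all genes with the cachectic group higher, and the log2 difference was 0.71 (SE 0.14, adjusted p = 0.000241; 0.48 and 0.00246 after scaling). Within the non-cachectic mock group, the 3 libraries of the high Pcna-ps2 set had 44.6 to 48.8 TPM of Xbp1 and the 6 of the low set 35.9 to 42.5 TPM.

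Trib3, which binds and restrains ATF4 and AKT, was at 1.82, 2.36 and 3.57 TPM against 2.68, 3.49 and 4.72 TPM in cachectic mock diaphragms. The log2 difference was 0.40 (SE 0.13, adjusted p = 0.0195), and 0.22 after scaling (adjusted p = 0.242). The 2 groups overlapped, with 4 cachectic libraries above all non-cachectic ones.
Atf4 was at 127, 158 and 169 TPM against 147, 185 and 350 TPM, with a log2 difference of 0.36 (SE 0.13, adjusted p = 0.0278) that was 0.13 after scaling (adjusted p = 0.641). The Atf4 call was also lost when any 1 of the libraries Dia20, Dia34 or Dia61 was left out (libraries are named here as in the table). Dia20, a cachectic mock diaphragm, held the highest Atf4 of that group and the highest Atf3, 68.5 TPM, and its immediate-early genes, a mark of tissue handling, summed to 596 TPM against 110 to 596 in its group.

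The other 6 genes did not pass in the mock diaphragm. Chac1, an enzyme that breaks down glutathione, averaged 47.6 ± 30.9 TPM (SD, 10 libraries) with cachectic melanoma and 25.9 ± 12.2 TPM (SD, 9 libraries) without cachexia, a log2 difference of 0.74 with a 95% interval of -0.20 to 1.69. Hspa5, which encodes the chaperone BiP, had 156 ± 28.0 against 124.5 ± 41.6 TPM, a log2 difference of 0.36 (adjusted p = 0.118). Syvn1, the HRD1 ubiquitin ligase of endoplasmic reticulum degradation, had 14.9 ± 2.86 against 11.6 ± 1.31 TPM, a log2 difference of 0.32 (adjusted p = 0.0816). The wide Chac1 interval spans both no difference and a more than doubled level. Hspa5 and Syvn1 were each called when Dia22 was left out, and Hspa5 also when Dia66 was. Ddit3, the CHOP gene, was the single gene with a lower cachectic mean, 21.3 ± 6.53 against 24.5 ± 6.06 TPM (adjusted p = 0.330), while Atf3 differed by 0.42, and by 0.10 without Dia20, and Sesn2, which inhibits mTORC1 when leucine is short, by 0.28. After scaling the differences were 0.51 for Chac1, 0.12 for Hspa5, 0.099 for Syvn1, 0.20 for Atf3, 0.11 for Sesn2 and -0.44 for Ddit3 (adjusted p = 0.0874 for Ddit3, which had the smallest of the 6).

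The mock diaphragm counts moved with the Pcna-ps2 split. With the split as a term in the fit 2 of the 10 genes were called, Asns (0.67, adjusted p = 0.0147) and Xbp1 (0.49, adjusted p = 0.00727), beside 15.3% of all genes. Within the high set of libraries 1 was, Asns (0.99, adjusted p = 0.0349), beside 5.69% of all genes, and Xbp1 stood at 0.61 (adjusted p = 0.0506). In that set the log2 difference of Hspa5 was -0.0052, against 0.36 over all libraries.

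**Figure D2:**
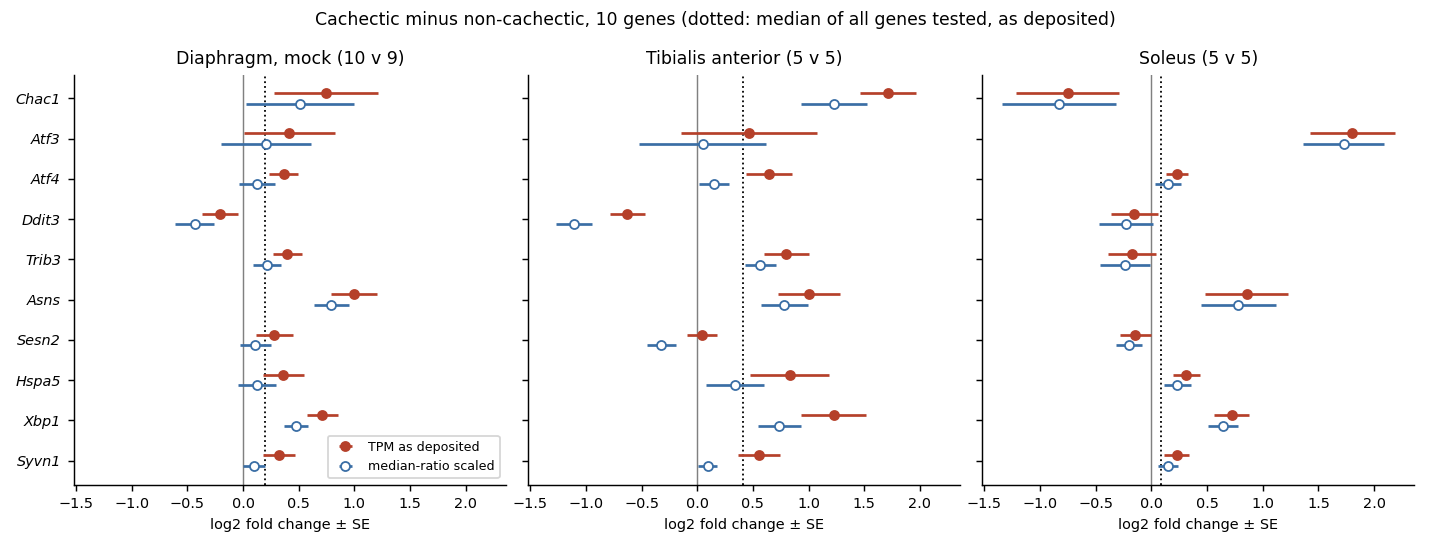
Log2 difference between cachectic and non-cachectic groups, on the log2(TPM + 1) scale, for the 10 genes in mock diaphragm, TA and SOL, with bars of 1 SE, as deposited (red, filled) and after median-ratio scaling (blue, open), and a dotted line at the median of all genes tested. The Xbp1 values as deposited, 0.71, 1.22 and 0.72, lie to the right of that median in all 3 muscles, while Chac1 lies at 1.71 in TA and at -0.75 in SOL.

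In TA, Chac1, Xbp1, Atf4 and Syvn1 were higher and Ddit3 lower in cachectic mice, with the largest difference in Chac1. These were 5 of the 8 genes that reached 1 TPM in every library of both groups. In TA 60.2% of the 11105 genes tested were called, 56.4% higher and 3.78% lower, so the share of these genes that rose was near that of all genes. The median log2 difference was 0.60 over the 8 genes and 0.41 over all genes. After scaling 3 of the 8 were called (Chac1 and Xbp1 higher, Ddit3 lower), against 40.4% of all genes. The remaining pair, Asns and Trib3, reached 1 TPM in all 5 cachectic but in 1 of 5 non-cachectic libraries, so they passed the filter on low values only through the group where they were high, and they are left out of these counts. With no filter 4 of the 8 were called, beside 34.1% of 20476 genes.

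Chac1 was at 144, 185, 163, 116 and 151 TPM in the 5 cachectic TA libraries (TA6 to TA10) and at 57.9, 50.6, 57.6, 52.6 and 20.7 TPM in the 5 non-cachectic ones (TA61 to TA65). The groups did not overlap, as for 49.1% of all genes tested in TA with the cachectic group higher, and the lowest cachectic value was above the highest non-cachectic one by more than the SD of either group, 25.7 and 15.5 TPM. The log2 difference was 1.71 (SE 0.25, adjusted p = 0.000652) and 1.23 after scaling (adjusted p = 0.00894).
Xbp1 was at 64.6, 70.4, 229.6, 70.6 and 86.8 TPM against 39.2, 44.8, 31.9, 40.3 and 38.2 TPM. Again the groups did not overlap, and the library TA8 stood far above the other cachectic ones. The log2 difference was 1.22 (SE 0.29, adjusted p = 0.00631), 0.74 after scaling (adjusted p = 0.0118), and 0.89 as deposited without TA8 (adjusted p = 7.39e-05).

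Asns was at 1.305, 1.38, 6.82, 2.46 and 2.34 TPM against 0.510, 0.705, 0.623, 0.780 and 1.05 TPM, a log2 difference of 1.01 (SE 0.28). Trib3 was at 1.38, 2.09, 4.48, 1.48 and 2.06 TPM against 0.815, 1.02, 0.722, 0.889 and 0.595 TPM, a difference of 0.80 (SE 0.20). For both genes the groups did not overlap and TA8 was again the highest library. After scaling the differences were 0.78 for Asns (adjusted p = 0.0134) and 0.57 for Trib3 (adjusted p = 0.0102). As deposited and with no filter on low values their adjusted p-values were 0.0284 and 0.0188. Atf4 was at 176, 215, 393, 154 and 204 TPM against 117, 149, 134, 145 and 144 TPM, a difference of 0.65 (adjusted p = 0.0208), and Syvn1 was at 10.4, 11.7, 25.5, 13.6 and 14.6 TPM against 9.29 to 9.83 TPM, a difference of 0.55 (adjusted p = 0.0271). The Atf4 and Syvn1 groups did not overlap either, but after scaling their differences were 0.15 (adjusted p = 0.376) and 0.09 (adjusted p = 0.402).

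Ddit3 moved the other way: it was at 9.93, 8.39, 11.2, 9.71 and 15.1 TPM in cachectic and at 14.8, 17.0, 14.6, 18.9 and 20.6 TPM in non-cachectic TA. Only the highest cachectic library, TA10, reached into the non-cachectic range. The log2 difference was -0.63 (SE 0.16, adjusted p = 0.00765) and -1.11 after scaling (adjusted p = 0.000715). Ddit3 and Atf4, of which the first is a known target of the second, thus differed in opposite directions in this muscle as deposited.
Hspa5 was at 80.8, 86.6, 384.7, 83.4 and 120.0 TPM against 65.4, 76.3, 63.0, 63.0 and 74.7 TPM. Its groups did not overlap, yet the difference of 0.83 (SE 0.35) gave an adjusted p of 0.0586, with TA8 more than 3 times the next library. Without TA8 it was 0.42 and called (adjusted p = 0.00965), and with scaling and without TA8 it was 0.06 and not called. After scaling of all 10 libraries it was 0.34. Atf3 was at 41.4 TPM in TA8 and at 1.79 to 3.86 TPM in the other 4 cachectic libraries, against 1.97 to 7.43 TPM in non-cachectic TA, so its difference of 0.47 became -0.21 without TA8 and 0.049 after scaling. Sesn2 lay at 1.94 to 2.67 TPM against 1.55 to 2.65 TPM, a difference of 0.04 (-0.32 after scaling, adjusted p = 0.0675).

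TA8 thus carried a raised level of 7 of the 10 genes, and it also held the highest macrophage, neutrophil and immediate-early marker sums of its group (51.0, 49.0 and 255 TPM), the highest fibroblast and plasma cell sums (444.03 and 6.57 TPM), the lowest muscle marker sum (30897 TPM) and the lowest share of mitochondrial transcripts, 25.1%. Without it 6 of the 8 genes above the filter in both groups were called, beside 66.7% of all genes, and the differences of Asns, Trib3 and Syvn1 were 0.71, 0.60 and 0.36. After scaling and without TA8, 3 of the 8 were called, beside 41.9% of all genes: Chac1 (1.33, adjusted p = 0.00727) and Xbp1 (0.54, adjusted p = 0.00126) higher and Ddit3 (-0.999, adjusted p = 0.000525) lower. Asns was then at 0.59 and Trib3 at 0.46. In the fit of all 10 libraries, the Syvn1 call was lost when any 1 of TA61, TA62, TA63 or TA65 was left out and the Atf4 call without TA61, while Hspa5 was called without any 1 of TA6, TA7, TA8 or TA9.

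In SOL, the genes that rose in cachectic mice were Atf3 and Xbp1, and no gene fell. These 2 of 10 stood beside 25.1% of 11957 genes called, 17.5% higher and 7.54% lower, and after scaling the same 2 genes were called beside 28.6% of all genes. The median log2 difference was 0.23 over the 10 genes and 0.09 over all genes.

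Atf3, a stress-induced transcription factor, was at 34.1, 34.1, 47.8, 108.0 and 53.5 TPM in the 5 cachectic SOL libraries (SOL6 to SOL10) and at 8.92, 8.55, 11.2, 16.4 and 33.5 TPM in the 5 non-cachectic ones (SOL61 to SOL65). The groups did not overlap, as for 14.6% of all genes in SOL with the cachectic group higher, though the highest non-cachectic library came within 1 TPM of the lowest cachectic ones. The log2 difference was 1.80 (SE 0.38, adjusted p = 0.00624) and 1.73 after scaling (adjusted p = 0.00602).
Xbp1 was at 55.5, 64.7, 94.99, 69.1 and 48.1 TPM against 41.4, 41.7, 32.98, 38.6 and 40.3 TPM. These groups did not overlap, and the difference was 0.72 (SE 0.16, adjusted p = 0.00675; 0.64 and 0.00615 after scaling). Xbp1 was the single gene of the 10 called higher in all 3 muscles, as were 12.3% of all genes tested in each, a share near that of the 10.

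Chac1 was at 30.01, 74.3, 18.2, 13.3 and 22.9 TPM in cachectic and 76.7, 40.6, 52.3, 67.4 and 16.7 TPM in non-cachectic SOL, a log2 difference of -0.75 (SE 0.47, adjusted p = 0.258). The groups overlapped through 1 library on each side, SOL7 and SOL65. SOL7 also had 4989 TPM of the fast myosin Myh4 against at most 69.8 TPM in the other cachectic SOL libraries.
Asns was at 2.09, 5.04, 18.8, 5.33 and 5.53 TPM against 3.41, 2.14, 2.98, 2.21 and 3.46 TPM, a difference of 0.85 (adjusted p = 0.117). All but 1 of the cachectic libraries were above the non-cachectic ones, and the lowest of all 10 was cachectic. Without SOL8, which had the highest level, the difference was 0.47. Atf4 differed by 0.23 (adjusted p = 0.105), Hspa5 by 0.31 (adjusted p = 0.0859), Syvn1 by 0.23, Ddit3 by -0.15, Trib3 by -0.17 and Sesn2 by -0.14, none of them called. Their groups all overlapped. After scaling those 6 lay between -0.24 and 0.23, Chac1 at -0.83 and Asns at 0.78, again with none called. As deposited, Atf4 was called without SOL9, Asns without SOL6 and Hspa5 without SOL7.

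The melanoma effect itself differed between TA and SOL for 2 of the 10 genes, Chac1 and Trib3, beside 20.4% of 13501 genes. The Chac1 effect was 2.47 log2 units higher in TA than in SOL (SE 0.65, adjusted p = 0.00941; after scaling 2.06, adjusted p = 0.0519). The Trib3 effect was 0.98 higher (SE 0.26, adjusted p = 0.0106), and 0.80 higher after scaling (adjusted p = 0.0243). Trib3 reached 1 TPM in only 1 of 5 non-cachectic TA libraries, so this effect rests on a level near the floor there. For Atf3, called in SOL and not in TA, the effects differed by -1.34 (95% interval -3.06 to 0.39, adjusted p = 0.241), so a difference between those muscles was not shown. Between diaphragm and TA none of the 10 genes had a called difference (5.04% of all genes, limma, with 0 of 10 and 24.4% of all genes at an unadjusted p under 0.05), and between diaphragm and SOL none had (2.52% of all genes, with 2 of 10 and 15.8% of all genes at an unadjusted p under 0.05). With the number in the library names as a block, Chac1 was called in the last of these, its effect being 1.42 higher in the diaphragm than in SOL (adjusted p = 0.0402, 7.36% of all genes called). These 3 comparisons share the groups they are made of.

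In non-cachectic mice the levels also differed between muscles, as did those of many other genes. TA held less than SOL for 7 of the 10 genes and more for none. Of all genes 69.5% were called, 63.9% lower and 5.63% higher in TA, so the 7 of 10 lay near the share of all genes. The log2 differences were -1.78 for Trib3, -1.66 for Atf3, -1.14 for Asns, -0.92 for Ddit3, -0.73 for Hspa5, -0.72 for Atf4 and -0.36 for Syvn1. After scaling 4 were called, beside 53.3% of all genes, with Trib3 (-1.47) and Asns (-0.85) lower and Xbp1 (0.61) and Syvn1 (0.23) higher in TA, so the directions of Syvn1 and Xbp1 turned with the scaling. Chac1 stood at 47.9 ± 15.5 TPM in TA and 50.7 ± 23.6 TPM in SOL (SD, n = 5 each), a log2 difference of -0.0017 that was 0.62 after scaling (adjusted p = 0.310) and ran from -0.35 to 0.27 with 1 library left out. The Atf3 call was lost without SOL65 and the Syvn1 call without any 1 of TA62, TA65, SOL64 or SOL65. With the number as a block Sesn2 (-0.34, adjusted p = 0.0331) was called lower in TA as well, 8 of 10 genes with 76.1% of all genes called.
The mock diaphragm held more Trib3 (0.92), Asns (1.28), Hspa5 (0.79) and Ddit3 (0.47) and less Chac1 (-0.92, adjusted p = 0.0410) than TA. That was 5 of 10 genes, where 72.5% of all genes were called, 64% higher and 8.52% lower in the diaphragm. After scaling 7 of 10 were called, beside 70.9% of all genes. Ddit3 and Hspa5 then no longer passed. Atf4 (-0.42), Xbp1 (-0.45), Sesn2 (-0.40) and Syvn1 (-0.28) were then lower in the diaphragm, the reverse of their sign as deposited. The Chac1 call was lost when any 1 of 8 libraries was left out and the Ddit3 call without any 1 of Dia66, TA61 or TA63. Against SOL the mock diaphragm held less Trib3 (-0.86) and less Atf4 (-0.56). That was 2 of 10 genes, with 38.8% of all genes called, 22.1% lower and 16.8% higher. With the number as a block, Chac1 (-0.80, adjusted p = 0.0322) and Ddit3 (-0.53, adjusted p = 0.00540) were called lower as well, 4 of 10 genes with 49.9% of all genes called. In order of group mean, non-cachectic Trib3 was 0.809 ± 0.162 TPM in TA, 2.46 ± 0.559 in the diaphragm and 5.47 ± 2.25 in SOL, and each neighbour in that order differed by a called test.

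Recombinant Fibcd1, the secreted factor tested in this study, was compared with mock injection in the diaphragm. In cachectic mice 0 of the 10 genes were called (limma), as were 0.0447% of all genes, and 2 of 10 had an unadjusted p under 0.05, beside 10.5% of all genes. Chac1 had the largest difference of the 10. It was at 16.5 TPM in the lowest, 32.3 in the median and 98.0 in the highest cachectic mock library, against 2.77, 11.7 and 63.1 TPM after rFibcd1. In 6 of 10 rFibcd1 libraries Chac1 was below every mock library, and 3 of the mock libraries were above every rFibcd1 library. The log2 difference was -1.52 (95% interval -2.44 to -0.59, unadjusted p = 0.00197), with an adjusted p of 0.253. Without the 3 libraries that held over 500 TPM of the liver gene Alb it was -1.88 and called (adjusted p = 0.0418), and it was also called without Dia3. Ddit3 had the other small p, with a difference of 0.40 (adjusted p = 0.371).

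In non-cachectic mice 0 of the 10 genes were called after rFibcd1 against mock, beside 0.417% of all genes, and 3 of 10, Hspa5, Syvn1 and Xbp1, had an unadjusted p under 0.05. The same was true of 17.4% of all genes, and the median log2 difference over all genes was 0.15. Hspa5 was at 76.2, 107 and 211 TPM (lowest, median and highest) in mock and 112, 171 and 336 TPM in rFibcd1 diaphragms, a log2 difference of 0.69 (95% interval 0.32 to 1.06, adjusted p = 0.0866). Syvn1 was at 9.13, 11.6 and 13.01 against 10.6, 16.6 and 23.6 TPM, a difference of 0.44 (adjusted p = 0.203), and 8 of 10 rFibcd1 libraries lay above every mock library. Xbp1 was at 35.9, 41.9 and 48.8 against 37.1, 56.4 and 72.3 TPM, a difference of 0.35 (adjusted p = 0.256). The ranges overlapped for all 3. With only these 2 groups in the fit all 3 passed, at adjusted p = 0.0255, 0.0272 and 0.0375 for Hspa5, Syvn1 and Xbp1, beside 19.6% of all genes. After scaling, in the fit of all diaphragms, the differences were 0.52 (adjusted p = 0.287), 0.28 (adjusted p = 0.408) and 0.17 (adjusted p = 0.801). As deposited, Hspa5 was also called without any 1 of Dia11, Dia17, Dia57 or Dia66. The high Pcna-ps2 set made up 6 of 10 rFibcd1 and 3 of 9 mock libraries here. Marker sums of other cells also differed, with medians in rFibcd1 and mock of 22.1 and 8.65 TPM for plasma cells (7.78 to 309 and 5.74 to 86.5), 135 and 59.5 TPM for adipocytes (29.6 to 921 and 21.8 to 284) and 1079 and 861 TPM for fibroblasts (907 to 1351 and 657 to 1123). Without the 5 diaphragms above 70 TPM of the plasma cell gene Jchain the differences were 0.74 for Hspa5, 0.36 for Syvn1 and 0.30 for Xbp1. The part of adipocytes and fibroblasts was not tested.

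Under rFibcd1, cachectic and non-cachectic diaphragms differed in none of the 10 genes (limma, 9.11% of all genes called, 3 of 10 genes and 25.0% of all genes at an unadjusted p under 0.05). Asns was at 7.44 ± 3.35 against 4.77 ± 2.48 TPM (SD, n = 10 each), a log2 difference of 0.56 (adjusted p = 0.0668), which was called after scaling (0.49, adjusted p = 0.0410, 9.32% of all genes called). Xbp1 was at 71.9 ± 17.0 against 54.9 ± 11.7 TPM, a difference of 0.38 (adjusted p = 0.0627) that was 0.30 after scaling (adjusted p = 0.0625). Both were called when Dia2, Dia14 or Dia56 was left out, Trib3 also without Dia56, and Xbp1 also without Dia16, Dia18, Dia20 or Dia49. Whether rFibcd1 altered the melanoma effect was tested directly as an interaction: 0 of 10 genes were called (limma, 0.0223% of all genes, with 0 of 10 and 8.79% of all genes at an unadjusted p under 0.05). The interaction was -1.03 for Chac1 (95% interval -2.36 to 0.29) and -0.39 for Syvn1 (95% interval -0.80 to 0.02), intervals that leave room for a sizeable change as well as for none. These comparisons share their groups with the mock comparison above. The Dunn test, the kind of test on pairs of groups that the study used, was run here with the same adjustment over all genes. The study set its limits on p-values together with a fold change and names no adjustment of them. It also reports fewer diaphragms in its cachectic groups than the 10 libraries of each used here. The Dunn test called 0 of 10 for rFibcd1 against mock in cachectic mice, with 2 of 10 and 7.53% of all genes at an unadjusted p under 0.05. It called 0 of 10 in non-cachectic mice, with 3 of 10 and 24.9% of all genes there, and 0 of 10 between melanoma types under rFibcd1, with 1 of 10 and 18.7%.

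**Figure D3:**
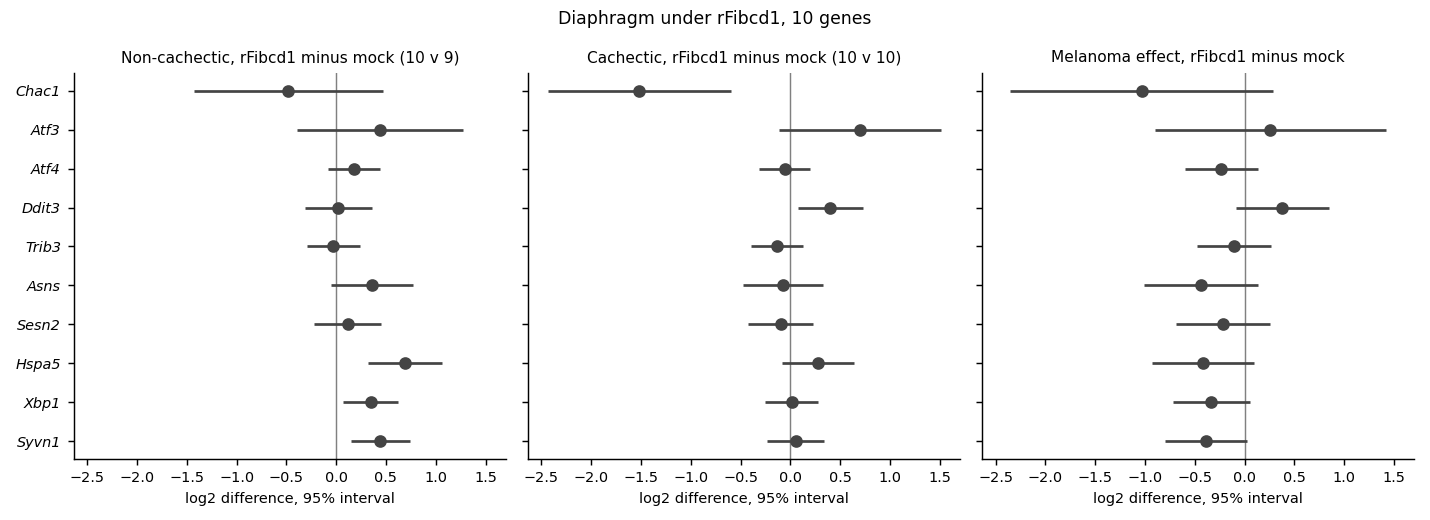
Log2 difference, on the log2(TPM + 1) scale, of the 10 genes in the diaphragm with 95% intervals, for rFibcd1 minus mock in non-cachectic mice, the same in cachectic mice, and the melanoma effect under rFibcd1 minus that under mock. Unadjusted intervals clear of 0 are seen for Hspa5 (0.69), Syvn1 (0.44) and Xbp1 (0.35) on the left and for Chac1 (-1.52) and Ddit3 (0.40) in the middle, and for no gene on the right.

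The 10 genes did not vary as 1 block among diaphragms of the same group. After group means were removed, 12 of 45 pairs of genes were correlated over the 39 diaphragm libraries (Pearson, Benjamini-Hochberg over the 45 pairs, permutation within groups), 11 of them positively and 1 negatively, and 8 pairs passed by Spearman's rho as well. The closest pair was Asns and Syvn1 (r = 0.700, rho = 0.745, permutation p = 1e-05 each, the smallest the permutations can give, adjusted p = 0.000225). Without the 2 libraries farthest from the median it was r = 0.740. Xbp1 went with Asns (r = 0.668, rho = 0.700) and with Syvn1 (r = 0.633, rho = 0.693), and Hspa5 with Syvn1 (r = 0.616, rho = 0.612) and with Ddit3 (r = 0.575, rho = 0.620). Asns, an ATF4 target, thus varied with unfolded protein response genes over these libraries, and Atf4 itself with Atf3 (r = 0.548, rho = 0.551). Asns, Hspa5, Syvn1 and Xbp1 were also the genes of the 10 called higher in the high Pcna-ps2 set (0.57, 0.51, 0.46 and 0.39). With groups in that fit (limma), 61% of all genes were called and the median difference was 0.23. With group and split both removed, r was 0.517 for Asns and Syvn1, 0.483 for Asns and Xbp1, 0.427 for Xbp1 and Syvn1 and 0.605 for Atf3 and Atf4.
Chac1 went against Hspa5 (r = -0.589, rho = -0.531, permutation adjusted p = 0.000900 and 0.00476). Within the high set of 26 libraries by Pcna-ps2 that pair had r = -0.527, and within the low set r = -0.728. In each set taken alone, 0 of 45 pairs passed the adjustment, so the correlations over all diaphragms were not shown within the sets. The smallest adjusted value there was 0.0567 by permutation, for Asns and Sesn2 in the high set (r = 0.656). After median-ratio scaling r was 0.431 for Asns and Syvn1, 0.366 for Asns and Xbp1, 0.301 for Xbp1 and Syvn1 and -0.522 for Chac1 and Hspa5, so the first 3 pairs weakened more than the last. The libraries share composition effects such as the mitochondrial share, whose part was not tested.

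**Figure D4:**
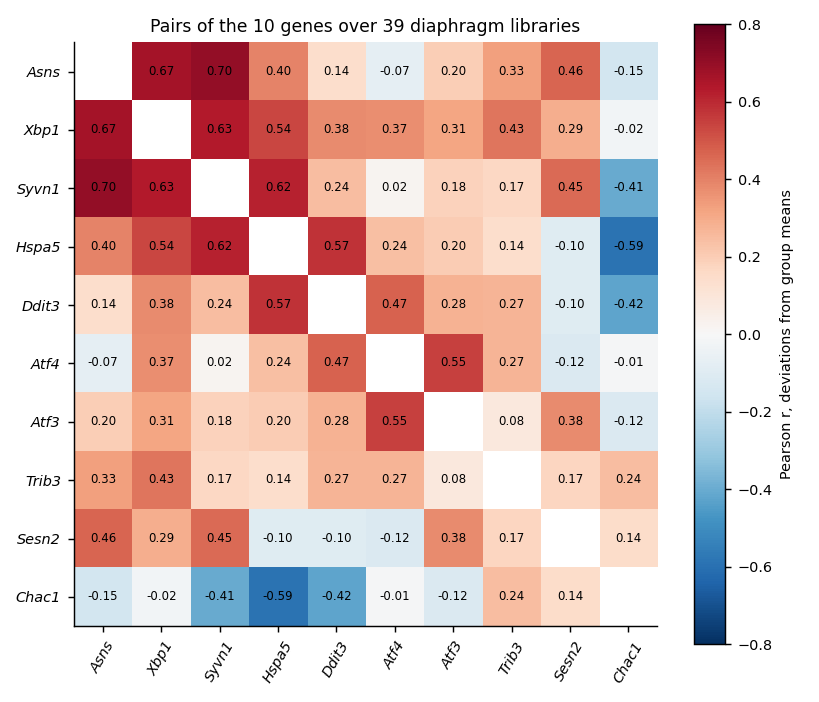
Pearson correlation between each pair of the 10 genes over 39 diaphragm libraries after group means of log2(TPM + 1) were removed, with colour and the printed value giving r. Asns, Xbp1, Syvn1 and Hspa5 are positive with each other, such as 0.700 for Asns and Syvn1, and the square of Chac1 and Hspa5 is at -0.589.

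The genes whose levels ran most like those of Chac1 and Hspa5 were sought among 12828 genes over all 59 libraries, as a description that also takes in differences between muscles. For Hspa5 they were Manf (r = 0.964), Hyou1 (0.929), Hsp90b1 (0.919), Creld2 (0.904) and Calr (0.902). These are genes of the endoplasmic reticulum, and Manf, Hyou1 and Hsp90b1 encode a secreted stress factor and a pair of chaperones. For Chac1 they were Pik3ip1 (0.844), an inhibitor of PI3 kinase, Zc3h6 (0.759), Abtb1 (0.741), Rcsd1 (0.740) and Mylk2 (0.736), the kinase of skeletal muscle myosin light chain. None of the other 9 genes was among the nearest 5 of either.

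The wider pathway was followed through 81 further genes in 7 lists. Unlike Asns and Trib3 in the TA counts above, listed genes that passed the filter only through 1 group were kept in these counts. In the mock diaphragm 31 of the 78 tested were higher and 1 lower in cachectic mice, where 30.9% of all genes were higher. In TA 51 of 74 were higher and 0 lower, with 56.4% of all genes higher, and in SOL 20 of 77 were higher and 4 lower, with 17.5% and 7.54% of all genes. After scaling these counts were 8 and 2 in the diaphragm, with 7.17% of all genes higher and 9.21% lower. They were 11 and 2 in TA, with 18.6% and 21.8% of all genes, and 20 and 6 in SOL, with 16.7% and 11.9%. Without TA8 they were 58 and 1 in TA, with 61.1% and 5.56% of all genes, and 21 and 8 with scaling as well, with 19.0% and 22.9%. With the Pcna-ps2 split as a term 13 were higher in the diaphragm, beside 12.3% of all genes, and within the high set 8 were, beside 5.00%.

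Of the endoplasmic reticulum degradation genes 9 of 16 were higher in the diaphragm, 13 of 15 in TA and 8 of 15 in SOL, with none lower as deposited. After scaling 2, 5 and 7 were higher and 1 was lower, in TA. Beside these and the next 2 lists, 30.9%, 56.4% and 17.5% of all genes were higher as deposited. After scaling 7.17%, 18.6% and 16.7% of all genes were. Nploc4, a cofactor of the p97 segregase that pulls proteins from the membrane, rose by 0.54, 1.16 and 0.54 log2 units in diaphragm, TA and SOL, and by 0.30 (adjusted p = 0.169), 0.67 and 0.46 after scaling. Of the chaperones and folding enzymes 8, 11 and 4 of 16 were higher and 0 lower, with P4hb, a protein disulfide isomerase, at 0.57, 1.24 and 0.51. After scaling 1, 2 and 4 of these were higher, P4hb among them in each muscle. Of the ATF6 and IRE1 sensors and partners 2, 6 and 0 of 7 were higher, and 1, 1 and 0 after scaling.

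On the ATF4 side the aminoacyl-tRNA synthetases had 4, 6 and 1 of 12 genes higher, and eIF2alpha kinases and phosphatase subunits 2, 5 and 2 of 7. The shares of all genes higher were 30.9%, 56.4% and 17.5% in diaphragm, TA and SOL, and 7.17%, 18.6% and 16.7% after scaling. After scaling the synthetases had 0, 0 and 2 higher, with 1 lower in each of TA and SOL, and the eIF2alpha list 0, 0 and 2 higher. Ppp1r15a, the GADD34 subunit that reverses eIF2alpha phosphorylation, rose by 0.96 in TA and 0.93 in SOL, and was at 0.49 (adjusted p = 0.145) and 0.85 (adjusted p = 0.00493) after scaling. Among ATF4 partners and regulatory targets 3 of 8 were higher in the diaphragm, 5 of 8 in TA and 3 of 8 in SOL, where 2 were lower. In the diaphragm and TA these counts lay near the shares of all genes. After scaling 2, 2 and 3 were higher, with 1 lower in the diaphragm and 2 in SOL. Ddit4, an inhibitor of mTORC1 that glucocorticoids also induce, had the highest differences of that list, 2.17 in diaphragm, 2.69 in TA and 1.94 in SOL, from group means of 17.1 to 90.5, 13.5 to 95.5 and 20.3 to 81.8 TPM. Eif4ebp1, a repressor of cap-dependent translation, was higher by 1.09, 2.62 and 0.95, and Cebpb, a bZIP partner of ATF4, by 0.83, 0.86 and 0.73. After scaling Ddit4 was called in all 3 muscles, Eif4ebp1 was not called in the diaphragm (0.85, adjusted p = 0.0672), and Cebpb was not called in TA (0.39, adjusted p = 0.151). Nupr1 and Atf5, both stress-response genes, were the ones lower in SOL, by -1.02 and -0.68 (-1.09 and -0.76 after scaling, both called).

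Amino acid synthesis and transport was mixed, with 3 of 12 higher and 1 lower in the diaphragm, 5 of 9 higher and 0 lower in TA, and 2 of 12 higher and 2 lower in SOL. Of all genes 30.9%, 56.4% and 17.5% were higher and 2.67%, 3.78% and 7.54% lower. After scaling 2, 1 and 2 were higher, with 1 lower in the diaphragm and 3 in SOL. The TA count holds Slc7a5, at a mean of 2.58 TPM in cachectic and 0.56 TPM (SD 0.17) in non-cachectic mice. Slc7a5 passed the filter in TA only through the group where it was high. Slc3a2, the shared heavy chain of several amino acid transporters, was higher by 1.35, 1.67 and 1.26, and called in all 3 muscles after scaling. Psat1, of serine synthesis, was higher in the diaphragm by 0.72 and in SOL by 0.76. Pycr1, of proline synthesis, was lower by -0.30 and -0.62 in the same muscles. Its cachectic means, 0.75 and 0.78 TPM, were under the 1 TPM of the filter, against non-cachectic means of 1.15 and 1.74 TPM. In SOL Pycr1 thus passed the filter through the group where it was high. Aldh18a1, also of proline synthesis, was lower in SOL by -0.59. Fgf21 and Gdf15, stress hormones induced by ATF4, stayed below the level needed for the test in every muscle. Of the 81 genes, 15 were higher in all 3 muscles, among them Ddit4, Slc3a2, Eif4ebp1, Cebpb, P4hb, Manf and Nploc4, and 0 were lower in all 3. That was 15 of the 74 genes tested in all 3 muscles, where 12.3% of all genes so tested were higher in all 3. After scaling there were 3, namely Ddit4, Slc3a2 and P4hb, beside 3.57% of all genes. In the comparisons of rFibcd1 with mock 0 of 78 were called in either melanoma type (limma), with 6 and 21 at an unadjusted p under 0.05 in cachectic and non-cachectic mice, where 10.5% and 17.4% of all genes were. After scaling these were 10 and 12, where 14.7% and 6.75% of all genes were. Ddit4 differed by -1.36 between cachectic rFibcd1 and mock diaphragms (adjusted p = 0.131).

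**Figure D5:**
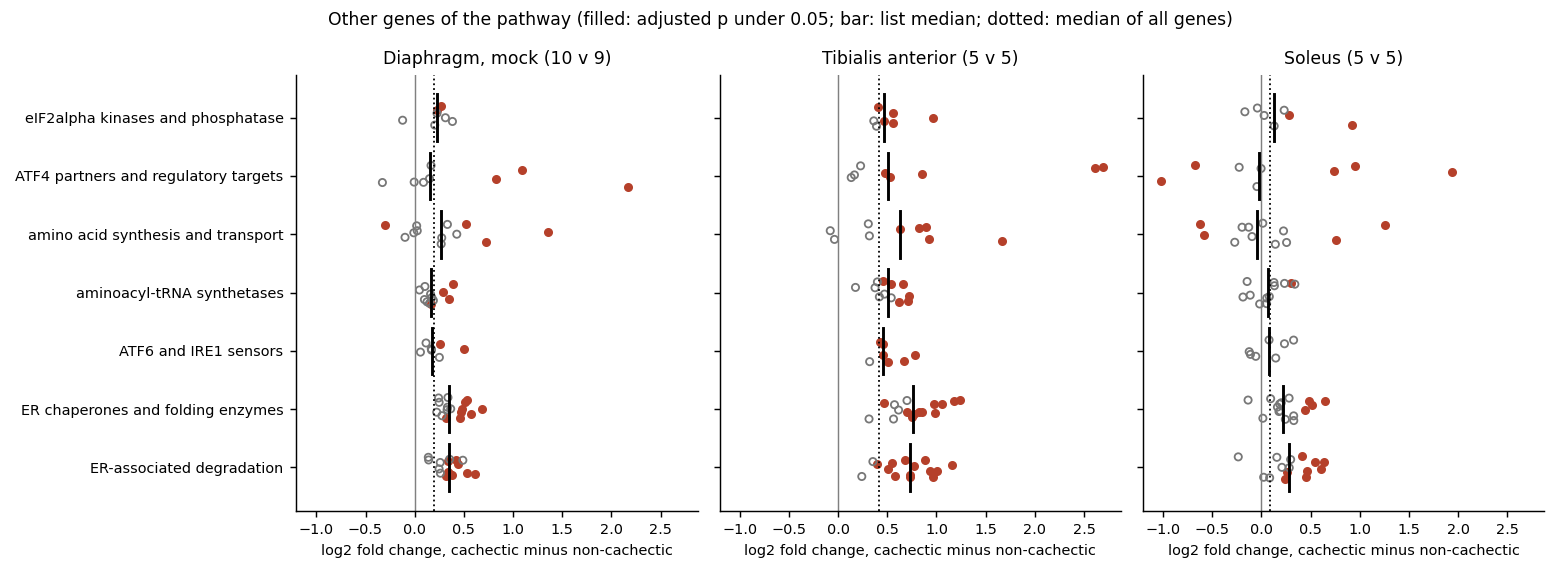
Log2 difference between cachectic and non-cachectic groups, on the log2(TPM + 1) scale, for each tested gene of the 7 pathway lists in mock diaphragm, TA and SOL, with filled points for an adjusted p under 0.05, a bar at each list median and a dotted line at the median of all genes. The degradation list holds 9, 13 and 8 filled points, all to the right of 0, and the points farthest right, 2.17, 2.69 and 1.94, are Ddit4.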

How the data were processed

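The authors aligned reads to the mouse genome (GRCm38, mm10) with CLC Genomics Workbench and deposited 1 table of TPM for 59 libraries. Replicates were not pooled, and the annotation used was not given in the sources used here. The labels name a stranded kit and the study's methods another one. All 59 columns were mapped to groups by name, and 0 value columns were left unmapped. The columns carry library numbers that the labels do not tie to replicates, so p-values measure the spread between libraries, which may be partly technical. No libraries were identical.

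Values were tested as log2(TPM + 1) with limma 3.58.1 in R 4.3.3 (trend, two-sided), keeping genes at 1 TPM or more in as many libraries as the smallest group. P-values were adjusted over all genes tested, with calls at 0.05. The 39 diaphragm libraries formed 1 fit, TA and SOL 1 fit each, and the 39 libraries of the 6 groups without rFibcd1 1 fit for differences between muscles. In all, 13 comparisons were made. Correlations used 100000 permutations within groups in Python 3.11.15 with scipy 1.17.1. The code was tested on simulated data.

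The 10 genes and all lists were chosen with earlier results of these data known. The text names the 10 genes, up to 3 called genes at each end of every pathway list, and the 5 genes most like Chac1 and Hspa5. The choice of which of these to describe, and of Fgf21 and Gdf15, was made after their values were seen. Further ranges of summed marker levels were those of muscle (27413 to 65316 TPM in the diaphragm), fibroblasts (582 to 828 TPM in non-cachectic and 201 to 600 TPM in cachectic SOL), hepatocytes (up to 9475 TPM in the diaphragm), adipocytes (up to 921 TPM in 1 rFibcd1 diaphragm) and plasma cells (5.74 to 309 TPM in the diaphragm, at most 9.43 TPM in the limb muscles).

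Alternatives were pseudocount 0.1, a mean of 5 TPM or none as the filter, median-ratio scaling, 2 groups per fit, the Pcna-ps2 split (1 TPM) as a term or its high set alone, Dunn tests, a block on the number in the column name, and each library left out. Chosen after seeing the data were leaving out 3 libraries with Alb above 500 TPM or 5 with Jchain above 70 TPM, and combinations with scaling or without TA8. For the library numbers shared by all 3 muscles (10), deviations of same-numbered libraries were correlated above 0.1 in 10 of 10 pairs of diaphragm with TA. The same held for 10 of 10 pairs of TA with SOL and 7 of 10 of diaphragm with SOL. In all, 27 of 30 pairs were above 0.1, from -0.00233 to 0.509. No pairs with different numbers are given as a reference, so whether equal numbers mark the same mouse was not shown. Values with the block stand beside results it changed.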

Additional observations from a re-analysis of the deposited data

Results flagged for a closer look

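In 80 sets of 1 gene in 1 group, 21 had a library far from the rest by Dixon's criterion, applied to TPM. Its rate of about 1 of 20 sets is for independent, normally distributed values. The 80 sets share libraries and TPM need not be normal, so the 21 cannot be set against that rate. TA8, a cachectic TA library, was the far one for 7 of the 10 genes: 41.4 TPM of Atf3 (next 3.86), 392.5 of Atf4 (next 215.1), 4.48 of Trib3 (next 2.09), 6.82 of Asns (next 2.46), 384.7 of Hspa5 (next 120.0), 229.6 of Xbp1 (next 86.8) and 25.5 of Syvn1 (next 14.6).

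Atf3 had a far library in 4 other groups. It was at 68.5 TPM in Dia20 of the cachectic mock diaphragms (next 10.3), where Atf4 was far as well at 350.1 TPM (next 248.5). It was at 27.5 TPM in Dia63 of the non-cachectic mock diaphragms (next 13.4), at 109.7 TPM in Dia1 of the cachectic rFibcd1 diaphragms (next 25.3) and at 108.0 TPM in SOL9 of cachectic SOL (next 53.5).

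Dia17 of the cachectic rFibcd1 diaphragms held 351.0 TPM of Hspa5 (next 232.5) and 27.9 TPM of Syvn1 (next 18.7). Dia56 of the non-cachectic rFibcd1 diaphragms held 4.72 TPM of Trib3 (next 3.07), 11.1 TPM of Asns (next 5.47) and 4.73 TPM of Sesn2 (next 2.87). Asns was also far in Dia4 of the cachectic rFibcd1 diaphragms at 15.3 TPM (next 9.20) and in SOL8 of cachectic SOL at 18.8 TPM (next 5.53).

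Chac1 was far at the high end in SOL7 of cachectic SOL, at 74.3 TPM (next 30.01), and at the low end in TA65 of non-cachectic TA, at 20.7 TPM (next 50.6). The melanoma effect of Chac1 differed between TA and SOL by 2.47 log2 units (limma, adjusted p = 0.00941). Chac1 was higher in 5 of 5 cachectic TA libraries than in any non-cachectic one, as were 49.1% of all genes tested in TA. The Trib3 effect differed by 0.98 (limma, adjusted p = 0.0106), with Trib3 at 1 TPM or more in only 1 of 5 non-cachectic TA libraries.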

How the results depend on the processing

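Of the counts of the 10 genes called, 79 values under single alternatives stayed within 1.5 times the count reported. The cause of the following moves was not tested. With genes kept at a mean of 5 TPM, the TA minus SOL melanoma effect called 1 gene and the diaphragm minus TA level 3 (24.5% and 71.0% of all genes). After median-ratio scaling the mock diaphragm called 2 (16.4% of all genes) and the rFibcd1 diaphragm 1 (9.32%). The TA minus SOL effect then called 1 (1555 of 13501 genes) and the TA minus SOL level 4 (53.3%). With 2 groups per fit, rFibcd1 against mock in non-cachectic mice called 3 (19.6%). In the mock diaphragm the Pcna-ps2 split as a term left 2 (15.3%) and its high set alone 1 (5.69%). The term with scaling left 2, for which the share of all genes is not given. The Dunn test called 2 for the diaphragm minus TA level, 0 for diaphragm minus SOL and 4 for TA minus SOL (51.0%, 8.73% and 37.0% of all genes), with 3, 3 and 7 genes at an unadjusted p under 0.05. Without the 3 libraries high in Alb rFibcd1 against mock in cachectic mice called 1 (0.765% of all genes), and without the 5 high in Jchain the melanoma comparison under rFibcd1 called 2 (8.30%).

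After scaling 24 of 130 log2 differences changed sign, 7 of them called before or after it. Among the genes the report gives for a comparison these were Sesn2 in TA (-0.32), Ddit3 (-0.081), Atf4 (-0.42), Sesn2 (-0.40), Xbp1 (-0.45) and Syvn1 (-0.28) in the diaphragm minus TA level, and Xbp1 (0.61), Syvn1 (0.23), Sesn2 (0.12) and Chac1 (0.62, and 0.000656 with pseudocount 0.1) in the TA minus SOL level. Hspa5 in the mock diaphragm was at -0.0052 in the high set and at -0.012 with scaling and the split as a term, where Syvn1 was at -0.014.

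With 1 library left out, the counts ran from 3 (without Dia20) to 6 (without Dia22) in the mock diaphragm. Under rFibcd1 they ran from 0 to 3 (without Dia56). For rFibcd1 against mock they ran from 0 to 1 (without Dia3) in cachectic and 0 to 1 in non-cachectic mice. In TA they ran from 5 to 8, with Asns and Trib3 included, which passed the filter there only through the cachectic group. In SOL they ran from 2 to 3. They were 2 to 2 for the TA minus SOL effect and 0 to 0 for the interaction and the other differences of effect. The level counts ran from 3 to 6 for diaphragm minus TA and 2 to 3 for diaphragm minus SOL. They ran from 5 to 7 for TA minus SOL. The share of all genes called is given for only 1 of these omissions, TA without TA8 (66.7%, against 60.2% with all TA libraries). For the others it cannot be told whether all genes moved alike. Log2 differences that crossed 0 ran from -0.21 to 0.77 for Atf3 and -0.033 to 0.096 for Sesn2 in TA, -0.29 to 0.0038 for Trib3 in SOL, -0.16 to 0.033 for Hspa5 under rFibcd1, -0.060 to 0.072 for Sesn2 in the diaphragm minus TA level, and -0.35 to 0.27 for Chac1 and -0.066 to 0.059 for Xbp1 in the TA minus SOL level.

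With the library number as a block (consensus correlation 0.381), the diaphragm minus SOL effect called 1 gene, Chac1 (1.42, adjusted p = 0.0402), and the diaphragm minus SOL level 4. In the TA minus SOL level it added Sesn2, giving 8, and it changed no other call of the 10 genes between muscles. No number occurs in both melanoma types of a muscle, so the block could not bear on the melanoma comparison within a muscle. Depth is unknown from TPM, so genes near 1 TPM such as Trib3 and Asns in TA have an error that could not be given.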

Other observations

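The same number marked a low Chac1 and a high Atf3 in both limb muscles of the non-cachectic mice. Library 65 held 20.7 TPM of Chac1 in TA and 16.7 TPM in SOL, the lowest of each group, and 7.43 and 33.5 TPM of Atf3, the highest of each group. Diaphragm library 65 did not show this, with 14.96 TPM of Chac1 in a group whose lowest was 12.4 TPM, and 4.42 TPM of Atf3 in a group whose median was 5.45 TPM.
Dia17 of the cachectic rFibcd1 diaphragms held both the lowest Chac1 of all 59 libraries, 2.77 TPM, and the highest Hspa5 of the diaphragm, 351.0 TPM. Its neutrophil markers summed to 333 TPM and its plasma cell markers to 172 TPM.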
